A study of Mus musculus with 11 samples.

Results

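Homologous recombination and Fanconi anemia repair genes were examined in whole distal tibiae of mice that had lost bone marrow adipocytes. The group holds 31 of the 22600 genes in the count table, listed by their place in these 2 repair pathways. The list was chosen with earlier results of these data known. Control mice (n = 4) carried the label BMAd-WT, and BMAd-DTA mice (n = 7) expressed diphtheria toxin A (DTA), a protein that kills the cell that makes it. All 11 mice were of the C57BL6/SJL strain, aged 24 weeks and fed ad libitum, and 1 library was made per mouse from bulk RNA. Both groups carried Osterix-FLPo and FAC, a Cre recombinase placed in the 3' end of the endogenous Adipoq gene that works only after FLPo has acted in the Osterix lineage, and the BMAd-DTA mice carried in addition ROSA-DTA behind a loxP-flanked stop. Recombination is incomplete in this model and reaches some marrow stromal cells of the adipocyte lineage, so the animals model a partial loss of marrow adipocytes.

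Homologous recombination repairs DNA breaks without loss of sequence by copying the sister chromatid, and so acts in cells that are replicating or have just replicated their DNA. Broken ends are first resected to single strands, mediator proteins then help build on them the protein filament that searches for the intact copy, and nucleases and helicases resolve the joined molecules. The Fanconi pathway unhooks crosslinks between DNA strands at stalled replication forks and passes the break on to recombination, and its inherited loss in people causes bone marrow failure.

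The libraries were alike in depth, with 16969529 to 18637663 counts each, and a member had between 54 and 1625 counts in a library (median 379). Levels are given as CPM, the share of a library's counts that a gene takes scaled to a fixed total, with libraries scaled by the TMM method. The tissue was checked against marker genes. All 12 adipocyte markers had lower means in BMAd-DTA tibiae (median log2 fold change -1.10), and all 12 osteoblast and osteocyte markers had higher means (median 1.06). Skeletal muscle markers summed to between 37.0 and 1718 CPM in control libraries and between 36.5 and 1301 CPM in BMAd-DTA libraries, being highest in control replicate 3 and BMAd-DTA replicate 6, so these 2 libraries held the most muscle RNA. Control replicate 1 differed in other markers. Its osteoblast and osteocyte markers summed to 3075 CPM, where the other controls had 11512 to 13196 CPM. Its sums of B lymphocyte precursor markers (435 CPM) and T lymphocyte markers (107 CPM) were the lowest of the 11 mice. Fits with a skeletal muscle score as covariate, and fits without single libraries, were run, and some of their values are given below. The part of this make-up in the results was not tested beyond these fits. The study describes male mice in the figures that hold its RNA sequencing, whereas the counts here were those of females. Female BMAd-DTA mice were used in other experiments of the study, such as ovariectomy and part of the fracture work. In all 11 libraries Xist, which is transcribed from the inactive X chromosome of females, had 13810 to 20260 counts, and 4 genes of the Y chromosome together had at most 1.

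The 31 members had mostly lower levels in BMAd-DTA tibiae by a small margin. The mean was lower in BMAd-DTA mice for 29 of the 31 members, and the median log2 fold change (BMAd-DTA minus control) was -0.24, with a range from -0.46 for Brca2 to 0.02 for Fancg. Across all 16496 genes tested the median was 0.0018, and 49.6% had a negative value. The quasi-likelihood test of edgeR, its p-values adjusted by Benjamini and Hochberg's procedure over the whole table, placed 0 members under an adjusted p of 0.05 in either direction, where 0.00606% of all genes passed as lower and 0.0727% as higher. At an unadjusted p under 0.05, 15 members were lower and 0 were higher, against 8.53% and 7.89% of all genes. Of the 8227 genes whose mean CPM lay within the range of the members, 8.17% were lower at that threshold. DESeq2, the tool used by the study, called 8 members lower and 0 higher at an adjusted p of 0.05. Of the 15583 genes to which it gave an adjusted p, it called 2.64% lower and 2.78% higher. For 4 members every BMAd-DTA mouse lay below every control mouse and for 0 members above, where 1.04% of all genes lay wholly below and 1.78% wholly above, and 1.25% of the genes in the members' range lay wholly below. In bulk tissue, fewer cells of a type and less RNA per cell cannot be told apart.

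**Figure D1:**
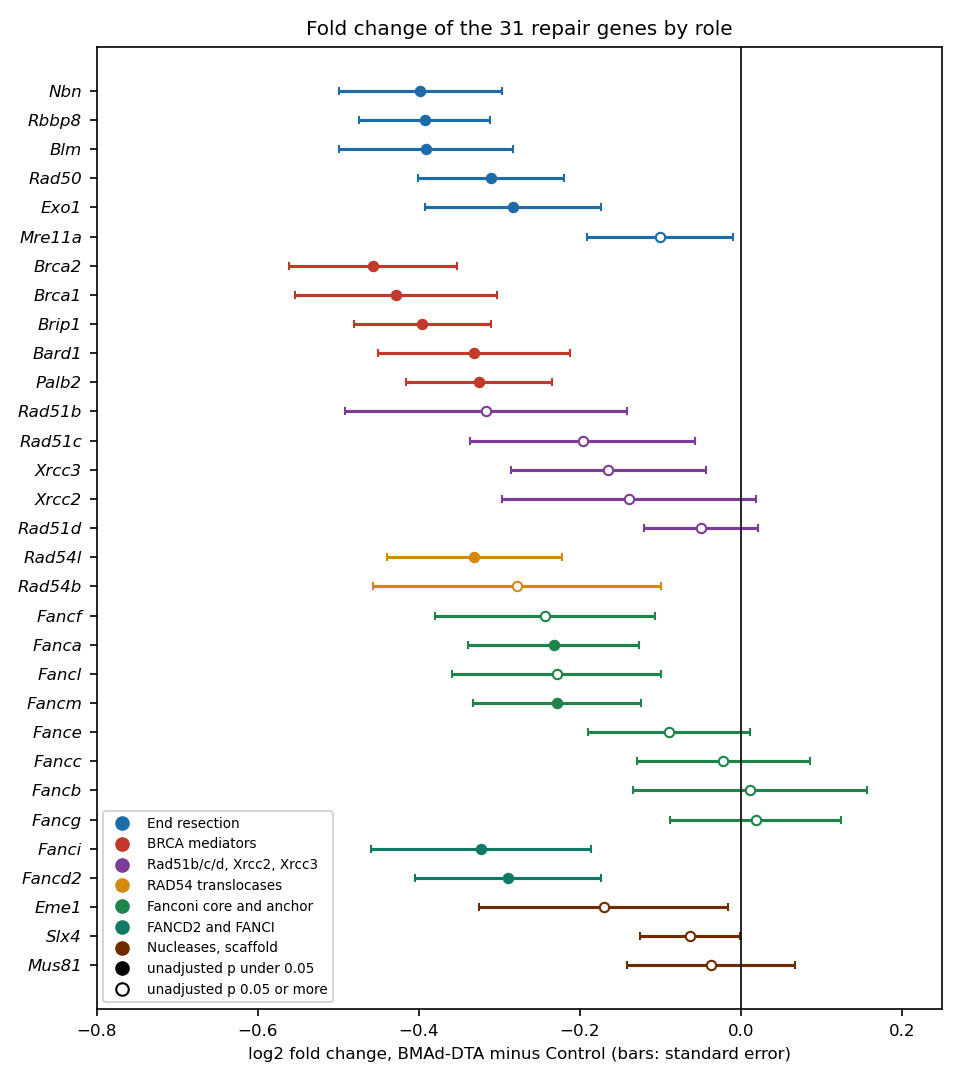
Fold change of each of the 31 members, grouped by role. The horizontal axis is the log2 fold change (BMAd-DTA minus control) with its standard error, and filled points mark an unadjusted p under 0.05 in edgeR; the 15 filled points all lie below 0, and 11 of the 15 belong to end resection, to the BRCA mediators or to the RAD54 translocases.

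The RefSeq promoter table held 23 of the 31 members. Those without an entry include Rbbp8, Nbn, Rad50, Exo1 and Fancd2, each with an unadjusted p under 0.05 in edgeR. Stretches are shown for 4 genes: Brip1, Brca1 and Brca2 were among the 8 members with the smallest p, and Fancg had the highest fold change. Blm and Palb2 were also among these 8 and had an entry, but their stretches are not shown. Each stretch covers the 180 bases before the RefSeq start site in build GRCm38.p6, written 5' to 3' on the gene's own strand. Capitals mark CCAAT or its reverse ATTGG, letters bound by the factor NF-Y, and the letters TTTCCCGC or their reverse GCGGGAAA, one form of the site of E2F factors, which drive genes of the replicating cell. The stretches lie at chr11:86201194-86201373 (minus strand) for Brip1, chr11:101551956-101552135 (minus strand) for Brca1, chr5:150522441-150522620 (plus strand) for Brca2 and chr4:43010302-43010481 (minus strand) for Fancg.
Brip1: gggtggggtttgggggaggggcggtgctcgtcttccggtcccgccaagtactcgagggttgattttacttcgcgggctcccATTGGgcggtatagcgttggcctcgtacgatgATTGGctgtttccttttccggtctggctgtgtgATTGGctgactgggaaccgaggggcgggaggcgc
Brca1: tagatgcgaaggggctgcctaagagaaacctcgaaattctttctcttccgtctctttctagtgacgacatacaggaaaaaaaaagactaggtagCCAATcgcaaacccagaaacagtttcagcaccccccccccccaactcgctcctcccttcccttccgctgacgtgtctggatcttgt
Brca2: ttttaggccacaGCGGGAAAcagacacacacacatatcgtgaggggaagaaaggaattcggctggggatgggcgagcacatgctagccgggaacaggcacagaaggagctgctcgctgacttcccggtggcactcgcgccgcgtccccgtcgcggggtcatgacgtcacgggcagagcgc
Fancg: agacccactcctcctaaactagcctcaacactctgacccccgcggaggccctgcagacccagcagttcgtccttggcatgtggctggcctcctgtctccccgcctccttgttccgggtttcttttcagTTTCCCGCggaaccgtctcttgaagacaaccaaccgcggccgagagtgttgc
Brip1 held 3 CCAAT letters in either direction, Brca1 held 1, and Brca2 and Fancg held 1 E2F string each. The stretch of Blm, not shown, held 1 CCAAT and 0 E2F strings, and that of Palb2 held 0 of both. Blm and Palb2 had a smaller p than Brca1 in edgeR.

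Over windows from 250 bases before to 50 bases after the start, the letters CCAAT on either strand were found for 15 of the 23 matched members (65.2%) and in 37.4% of all 32851 windows. Here and below, member shares count genes with the letters in any of the members' 26 windows. Shares of all windows count single windows, so the 2 measures are unlike. CCAAT was present for 7 of the 10 matched members with an unadjusted p under 0.05 and for 8 of the 13 others. The E2F strings TTTCCCGC, TTTCGCGC, TTTGCCGC and TTTGGCGC, on either strand, were found for 4 members (17.4%), namely Bard1, Brca2, Fancg and Rad51c, and in 2.26% of all windows. Of these 4, Bard1 and Brca2 had an unadjusted p under 0.05, Rad51c and Fancg did not, and so the same letters stood before the member with the lowest fold change and the one with the highest. The GC box GGGCGG was found for 14 members (60.9%) and in 35.7% of all windows. The CHR strings TTTGAA and TTCGAA, recognized in genes of mitosis, were found for 3 members (13.0%) and in 19.2% of all windows. The windows of the members had a median GC content of 58.85%, and all windows had one of 52.7%. Windows differ in base composition, which alone changes how often a motif occurs, and these letters are descriptions and not shown to be bound sites.

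Among the 6 genes of end resection, all had lower means in BMAd-DTA mice, 5 had an unadjusted p under 0.05 and the median log2 fold change was -0.35. Rbbp8, which encodes CtIP, the factor that starts resection together with the MRE11 complex, stood at 62.4, 55.1, 46.6 and 54.9 CPM in the 4 control mice, while in the BMAd-DTA mice it had a lowest value of 37.2, a median of 41.7 and a highest value of 46.3 CPM. The groups did not overlap, the highest BMAd-DTA mouse coming just under the lowest control. The log2 fold change was -0.39 (SE 0.081), with an adjusted p of 0.0675 in edgeR and of 0.00195 in DESeq2. Nbn, the regulatory subunit of the MRE11 complex that recruits the checkpoint kinase ATM, had 31.6, 27.8, 26.0 and 28.1 CPM in control mice and a lowest value of 16.6, a median of 21.7 and a highest of 25.5 CPM in BMAd-DTA mice. Its groups did not overlap either, and the log2 fold change was -0.40 (SE 0.10, adjusted p = 0.0895 in edgeR and 0.0146 in DESeq2). Per kilobase of exon, Nbn had the highest level of the 31 members, 11.2 CPM per kb in control and 8.50 in BMAd-DTA mice.

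Rad50, the ATP-driven clamp of that complex, had 51.6, 53.2, 47.1 and 59.1 CPM in the control mice and a lowest value of 36.9, a median of 42.0 and a highest of 49.9 CPM in the BMAd-DTA mice. Only 1 BMAd-DTA mouse, at 49.9 CPM, reached into the control range. Its log2 fold change was -0.31 (SE 0.091, adjusted p = 0.118 in edgeR and 0.0446 in DESeq2). Blm, the Bloom syndrome helicase of long-range resection, had 89.6, 81.2, 55.8 and 72.2 CPM in the control mice and a lowest value of 48.9, a median of 57.2 and a highest of 62.4 CPM in the BMAd-DTA mice. The groups overlapped because control replicate 3 was low, and 3 of 7 BMAd-DTA mice lay below every control. The log2 fold change of Blm was -0.39 (SE 0.11, adjusted p = 0.106 in edgeR and 0.0258 in DESeq2). The remaining members of the group were Exo1, the exonuclease of resection, with a log2 fold change of -0.28 (unadjusted p under 0.05), and Mre11a, the nuclease subunit itself, with -0.10 (95% interval -0.30 to 0.10). Of the 3 subunits of the MRE11 complex, Rad50 and Nbn therefore had lower estimates than Mre11a, a difference that was not tested.

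All 5 genes grouped here as BRCA mediators had an unadjusted p under 0.05, and their median log2 fold change was -0.40. Brip1, a helicase that binds BRCA1, had 24.1, 22.1, 23.3 and 26.1 CPM in the control mice and a lowest value of 15.4, a median of 18.2 and a highest of 20.03 CPM in the BMAd-DTA mice. No BMAd-DTA mouse reached the lowest control. The log2 fold change of Brip1 was -0.40 (SE 0.085), with an adjusted p of 0.0675 in edgeR and 0.00321 in DESeq2. Palb2, which joins BRCA1 to BRCA2, had 17.5, 16.4, 16.4 and 15.7 CPM in the control mice and a lowest value of 11.5, a median of 13.1 and a highest of 15.3 CPM in the BMAd-DTA mice. Its groups did not overlap, with a log2 fold change of -0.33 (SE 0.091, adjusted p = 0.108 in edgeR and 0.0369 in DESeq2).

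Brca2, the mediator that acts on single-stranded DNA, had the lowest fold change of all members. It stood at 64.5, 60.7, 44.4 and 60.9 CPM in the control mice and at a lowest value of 35.99, a median of 42.2 and a highest of 48.5 CPM in the BMAd-DTA mice. Control replicate 3 was the lowest control for Brca2, and 6 of 7 BMAd-DTA mice lay below it. The log2 fold change was -0.46 (SE 0.10, adjusted p = 0.072 in edgeR and 0.00482 in DESeq2). Brca1, a ubiquitin ligase that opens the way to resection and to PALB2, had 84.4, 66.1, 53.7 and 60.2 CPM in the control mice and a lowest value of 42.0, a median of 46.5 and a highest of 61.0 CPM in the BMAd-DTA mice. Here the groups overlapped and 5 of 7 BMAd-DTA mice lay below every control. The log2 fold change of Brca1 was -0.43 (SE 0.13, adjusted p = 0.119 in edgeR and 0.0334 in DESeq2), and that of its partner Bard1 was -0.33, with an adjusted p of 0.183 in edgeR. Control replicate 1 had the highest Brca1 level, and without it the log2 fold changes were -0.29 for Brca1 and -0.18 for Bard1.

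**Figure D2:**
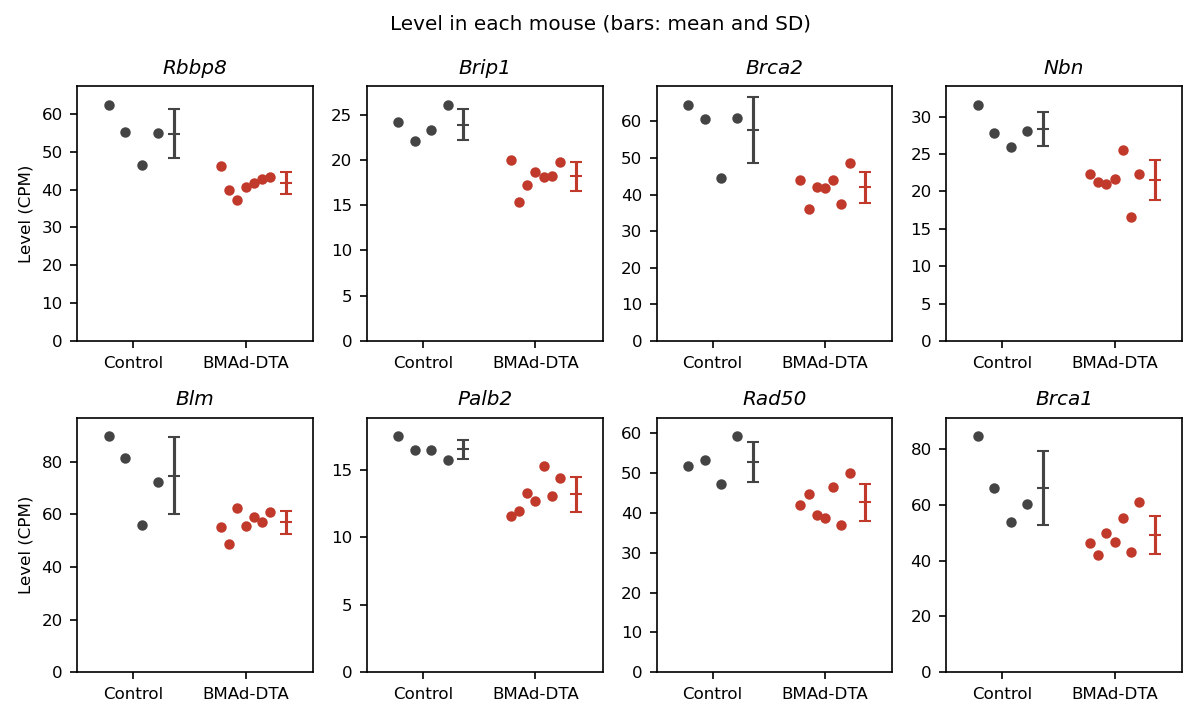
Level in each mouse of the 8 members with the smallest p in edgeR. The vertical axes give CPM and start at 0, each point is 1 mouse, and the bars give the mean and SD of 4 control and 7 BMAd-DTA mice; the groups do not overlap for Rbbp8, Brip1, Nbn and Palb2 and overlap for the other 4 genes.

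The genes Rad51b, Rad51c, Rad51d, Xrcc2 and Xrcc3, whose proteins form complexes that support strand exchange, had lower means in all 5 cases, of which 0 had an unadjusted p under 0.05 in edgeR, and a median log2 fold change of -0.16. Rad51b had the lowest level per kilobase of all members, 1.48 CPM per kb in control mice and 1.19 in BMAd-DTA mice, and between 54 and 110 counts per library. It had 6.06, 6.24, 5.55 and 4.41 CPM in the control mice and a lowest value of 3.06, a median of 4.58 and a highest of 6.01 CPM in the BMAd-DTA mice, so the groups overlapped widely. The log2 fold change was -0.32 (SE 0.18, adjusted p = 0.394 in edgeR). The other genes of this group had log2 fold changes of -0.20 for Rad51c, -0.16 for Xrcc3, -0.14 for Xrcc2 and -0.050 for Rad51d (95% interval -0.20 to 0.10). Without control replicate 1 the estimates were -0.082 for Rad51c and -0.10 for Xrcc3, and without BMAd-DTA replicate 2 that of Xrcc2 was -0.068. The 2 RAD54 translocases, motor proteins that help the filament find its partner, had -0.33 for Rad54l (unadjusted p under 0.05) and -0.28 for Rad54b. Without control replicate 1 these were -0.22 and -0.16, and without control replicate 3 the value of Rad54b was -0.44. Rad54b shares 2068 exon bases with the gene Fsbp on the same strand, where reads are ambiguous, and its control values varied most of all members (CV 25.7%).

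FANCD2 and FANCI are the pair that the pathway ubiquitinates at a crosslink, and both had an unadjusted p under 0.05, with log2 fold changes of -0.29 for Fancd2 and -0.32 for Fanci. Of the 8 genes of the core complex and its anchor, which carry out that ubiquitination, 6 had lower means, 2 had an unadjusted p under 0.05 and the median was -0.16. The lower estimates were -0.24 for Fancf, an adaptor, -0.23 for Fanca, a core subunit, -0.23 for Fancl, the catalytic ligase subunit, and -0.23 for Fancm, the DNA translocase that anchors the core, of which Fanca and Fancm had an unadjusted p under 0.05. Fancl overlaps Vrk2 on the other strand, and its estimate was -0.42 in counts that ignored strand, while the values here keep it. The estimates for Fance (-0.089), Fancc (-0.022), Fancb (0.012) and Fancg (0.02) lay near 0. Fancg had 25.7, 28.4, 19.9 and 25.6 CPM in the control mice and a lowest value of 23.2, a median of 24.3 and a highest of 30.9 CPM in the BMAd-DTA mice, the groups overlapping over most of their range. Its log2 fold change was 0.02 (SE 0.11, adjusted p = 0.955 in edgeR) with a 95% interval from -0.21 to 0.25. The 3 nuclease genes, which cut joined DNA molecules, had log2 fold changes of -0.17 for Eme1, -0.063 for Slx4, the scaffold, and -0.037 for Mus81, and 0 of them had an unadjusted p under 0.05 in edgeR or were called by DESeq2. The estimate for Eme1 was -0.016 without control replicate 1 and -0.28 without control replicate 3, and that for Fanca was -0.15 without control replicate 1.

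By mouse, the summed level of the 31 members was 962, 879, 760 and 859 CPM in control replicates 1 to 4, and in BMAd-DTA mice it had a lowest value of 671, a median of 724 and a highest of 785 CPM. The sums overlapped because control replicate 3 was low, and 5 of 7 BMAd-DTA mice lay below every control. The mean was 865 ± 83.0 CPM (SD, n = 4) in control and 720 ± 41.6 CPM (SD, n = 7) in BMAd-DTA mice. Control replicate 1 was the highest of the 11 mice for 15 members, and BMAd-DTA replicates 1 and 2 were each the lowest for 9. The coefficient of variation between mice of a group ran from 4.07% (Rad51d) to 25.7% (Rad54b) among controls and from 6.02% (Slx4) to 19.7% (Rad51b) among BMAd-DTA mice.

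**Figure D3:**
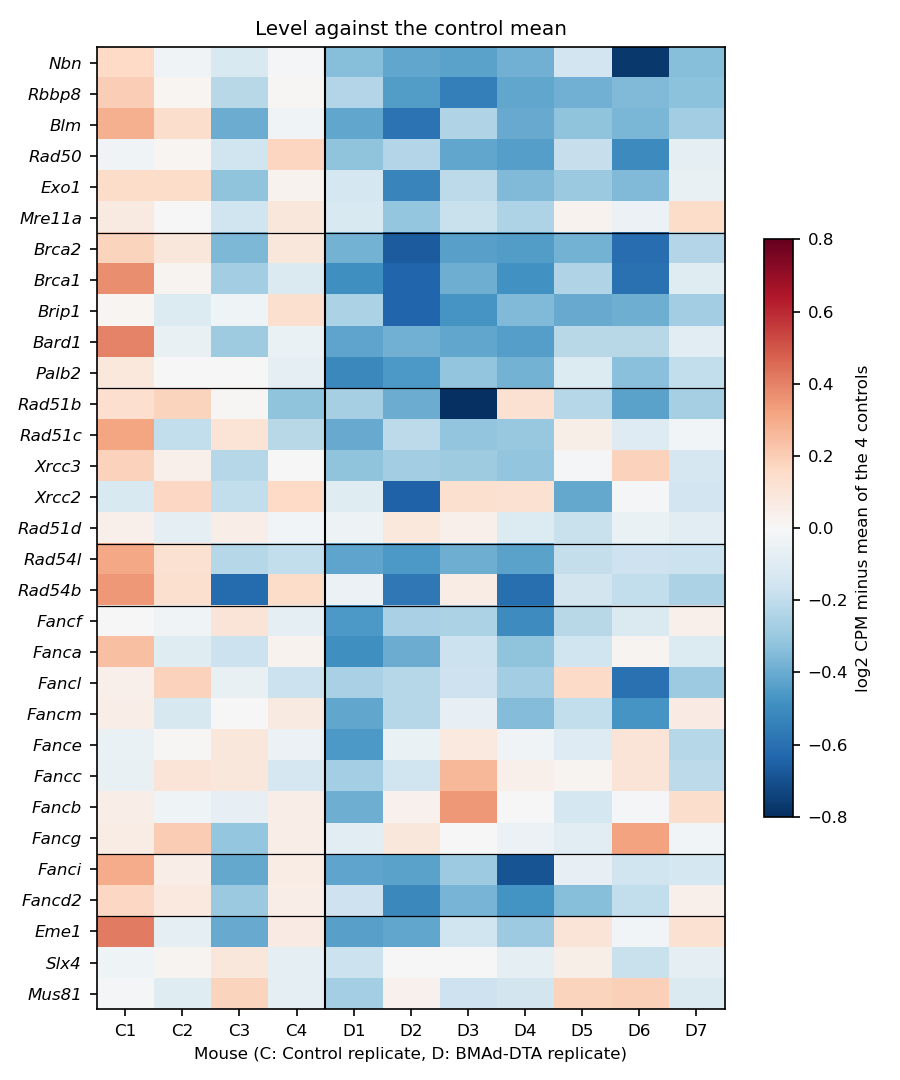
Level of each member in each mouse. Columns are the 4 control (C) and 7 BMAd-DTA (D) mice, rows are the 31 genes by role, and color gives log2 CPM minus the mean of the 4 controls; the rows of resection and the BRCA mediators are mostly blue in the BMAd-DTA columns, and control replicate 3 is also pale to blue for many genes.

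Other genes of both pathways also had lower means more often than higher ones. Of 48 such genes, 34 had lower and 14 higher means, 13 were lower and 2 higher at an unadjusted p under 0.05, and the median log2 fold change was -0.11. In edgeR 0 passed an adjusted p of 0.05, and DESeq2 called 4 lower and 0 higher, namely Chek2, Rfwd3, Usp1 and Wrn. Chek2, a checkpoint kinase downstream of ATM, had the lowest fold change, -0.39 (SE 0.10, adjusted p = 0.0895 in edgeR), and a mean of 30.0 ± 3.49 CPM (n = 4) in control against 22.9 ± 2.63 CPM (n = 7) in BMAd-DTA mice. Dmc1, the meiotic recombinase, had the highest, 0.51, but its standard error was 0.46 and its level was 1.87 CPM in control mice.

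Genes of the dividing cell had lower means beside the members. All 23 replication licensing genes had lower means, 16 of them at an unadjusted p under 0.05 (median log2 fold change -0.27). Mcm2, a subunit of the replicative helicase, had 246 ± 31.6 CPM (n = 4) in control and 200.5 ± 16.0 CPM (n = 7) in BMAd-DTA mice (log2 fold change -0.30, SE 0.084, adjusted p = 0.111 in edgeR). All 28 genes of the kinetochore, spindle and mitotic exit had lower means, 26 of them at an unadjusted p under 0.05, with a median of -0.33. Mki67, a protein of dividing cells, had 2140 ± 391 CPM (n = 4) in control and 1451 ± 200.2 CPM (n = 7) in BMAd-DTA mice, a log2 fold change of -0.56 (SE 0.13, adjusted p = 0.072 in edgeR). In edgeR 0 genes of these lists reached an adjusted p under 0.05, and DESeq2 called 10 licensing and 17 mitotic genes lower. Erythroid markers had lower means as well: 8 of the 10 markers were tested, all 8 had lower means, 7 of them at an unadjusted p under 0.05, with a median of -0.53, and their summed level ran from 3833 to 7743 CPM in control and from 3946 to 6169 CPM in BMAd-DTA mice. Their part in the result was not tested. A fit with an erythroid score as covariate was chosen after the data were seen. In it the median of the members was -0.18, against -0.24 without the covariate. Of the 8 members with the smallest p, only Brca1 is given for that fit. Its log2 fold change was -0.22, against -0.43 without the covariate. At an unadjusted p under 0.05, 5 members were lower in that fit. The share of all genes at that threshold in that fit is not given here, so the count cannot be set against it.

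**Figure D4:**
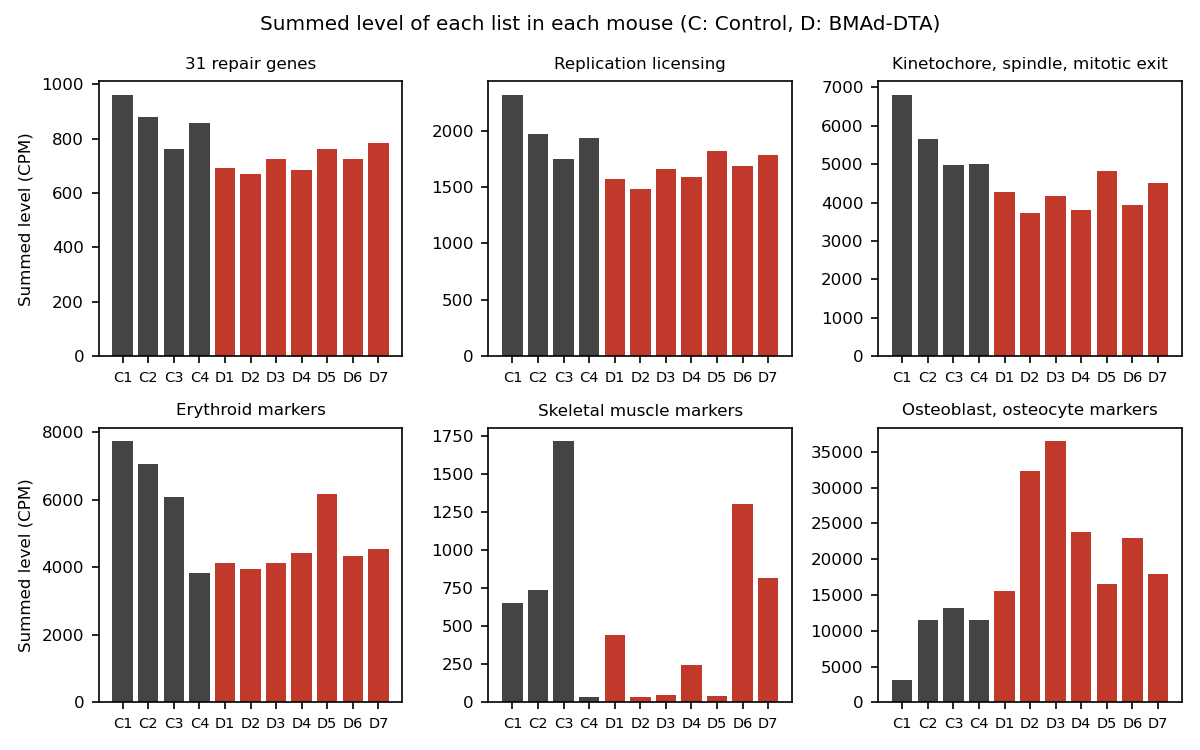
Summed level per mouse of the 31 members and of 5 other gene lists. The vertical axes give summed CPM from 0, and each bar is 1 control (C) or BMAd-DTA (D) mouse. Erythroid markers run from 3833 to 7743 CPM among controls. Control replicate 1, which has the highest sum of the members, also has the highest sum of licensing, mitotic and erythroid genes. Control replicate 4 has the lowest erythroid sum of all mice, 3833 CPM. Its sum of the members, 859 CPM, lies above the highest BMAd-DTA sum of the members, 785 CPM. How the erythroid sum relates to the sum of the members was not tested.

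Results that rested on single libraries are given without them. Without control replicate 3, edgeR called 3 members lower at an adjusted p of 0.05, namely Rbbp8, Blm and Brca2, where 0.692% of all genes were called lower. In the same 10 mice every BMAd-DTA value lay below every control value for 12 members and for 3.6% of all genes. Without control replicate 1, 8 members rather than 15 were lower at an unadjusted p under 0.05, against 4.87% of all genes. Without control replicate 3 and BMAd-DTA replicate 6, the 2 libraries with the most muscle RNA, the median log2 fold change of the members was -0.30. The groups then did not overlap for 12 members and for 4.03% of all genes, with library scaling estimated again from the remaining mice.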

How the data were processed

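Whole distal tibia RNA from 4 control and 7 BMAd-DTA mice was sequenced as strand-specific read pairs. Per the study's methods, the authors checked reads with FastQC 0.11.9 and mapped them with default STAR settings to the mm10 genome; the deposited values are raw counts per gene, and the annotation release is not given in the sources used here. The merged counts of 22600 genes were filtered by filterByExpr (16496 genes tested), scaled by TMM and tested with edgeR 4.0.16 (quasi-likelihood, genotype as the only term, two-sided, Benjamini-Hochberg over all genes tested) in R 4.3.3. Standard errors were computed from the fold change and the F statistic. DESeq2 1.42.0, limma 3.58.1, sva 3.50.0, other scalings, filters and count tables, and each mouse left out in turn were alternatives, and the scripts were tested on simulated data. Columns of other samples numbered 0. Gene lengths came from GENCODE M21, to which 99.889% of identifiers matched. Replicates were numbered in accession order, so numbers pair nothing. Each control value and the lowest, median and highest BMAd-DTA value were given for the 8 members with the smallest p, the member with the highest fold change and those with the highest and lowest level per kilobase; of other pathway genes those with the lowest and highest fold changes were named, and Mki67, Mcm2 and Prkdc served as single reference genes. Of the genes called by DESeq2, those of the other pathway genes and of excision repair were named in addition, after their values were seen. Members, lists and motifs were chosen with earlier results of these data known. Ahsp and Klf1 were not analysed here, and some single genes of the lists are not reported here.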

Additional observations from a re-analysis of the deposited data

Results flagged for a closer look

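Of 62 checks of a gene within a group, 1 singled out a mouse by Dixon's test, which flags about 1 in 20 groups by chance. Fancg, a subunit of the Fanconi core complex, stood at 30.9 CPM in BMAd-DTA replicate 6, while the next BMAd-DTA mouse had 26.3 CPM. The gap was 0.60 of the range of the 7 mice, above the critical value for 7 mice. This library also had the most skeletal muscle RNA of its group, whose part in the value was not tested. Without it the log2 fold change of Fancg was -0.036.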

How the results depend on the processing

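Over 14 alternative settings and 11 fits that left out 1 mouse each, 744 of 775 fold changes of single members kept their direction and side of the threshold, 13 passed the threshold anew and 18 changed sign; the cause was not tested. Members called lower by edgeR at an adjusted p of 0.05 numbered 0, against 8 in DESeq2, 2 in limma-voom with quality weights, and 0 to 3 without 1 mouse. DESeq2 called 2.64% of the genes given an adjusted p lower, and the fits without 1 mouse called 0% to 0.692% of all genes lower. The share in limma-voom with quality weights is not given here. Members lower at an unadjusted p under 0.05 numbered 8 to 16 without 1 mouse, where 4.87% to 9.83% of all genes were lower. With the erythroid covariate they numbered 5, and the share of all genes in that fit is not given here. Members whose groups did not overlap numbered 4 to 12 without 1 mouse and 12 without control replicate 3 and BMAd-DTA replicate 6 (7 without BMAd-DTA replicate 7, where 1.77% of all genes lay wholly below, and 3.6% and 4.03% where 12 did). The median ran from -0.28 to -0.21 without 1 mouse. Signs changed for Fancb, Fancg, Fancc, Mus81 and Rad51c. Fancb took -0.00027 without scaling, -0.0019 in limma-voom with and without quality weights, -0.014 with a muscle covariate, -0.015 with a surrogate variable, -0.030 with the erythroid covariate, -0.0017 without the 2 muscle-rich libraries and -0.052 to 0.069 without 1 mouse. Fancg took -0.051 in limma-voom with quality weights, -0.13 without these 2 libraries and -0.071 to 0.087 without 1 mouse. Fancc ran from -0.075 to 0.017 and Mus81 from -0.078 to 0.028 without 1 mouse. With the erythroid covariate Fancc had 0.037, Mus81 0.025 and Rad51c 0.0076. The erythroid covariate and the removal of 2 libraries were chosen after seeing the data. No paired analysis was possible because the labels give no replicate numbers that link control and BMAd-DTA mice. Members with few counts, such as Rad51b, limit the precision.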

Other observations

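Repair pathways that do not use homologous recombination had medians near 0. Of 13 genes of non-homologous end joining, which rejoins ends directly, 8 had lower and 5 higher means, 1 in each direction had an unadjusted p under 0.05, and the median log2 fold change was -0.044. Prkdc, the catalytic kinase of end joining, had 37.5 ± 4.33 CPM (n = 4) in control and 33.5 ± 3.38 CPM (n = 7) in BMAd-DTA mice (log2 fold change -0.16, SE 0.094, adjusted p = 0.417 in edgeR). Of 28 genes of base and nucleotide excision repair, 12 had lower and 16 higher means, with a median of 0.010. Of 7 mismatch repair genes 6 had lower means, with a median of -0.076. In edgeR 0 genes of these lists passed an adjusted p of 0.05, with 3 lower and 1 higher at an unadjusted p under 0.05. DESeq2 called 1 of these genes, Neil3, a glycosylase that also acts on DNA crosslinks, which had 79.8 ± 7.17 CPM (n = 4) in control and 64.1 ± 4.58 CPM (n = 7) in BMAd-DTA mice (log2 fold change -0.32, SE 0.073, adjusted p = 0.0078 in DESeq2 and 0.072 in edgeR). Whether these lists differ from the recombination genes was not tested.

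Among the marker lists of other blood cells, 12 of 12 markers of B lymphocyte precursors had higher means (median log2 fold change 0.33, 1 at an unadjusted p under 0.05), as had 8 of 8 T lymphocyte markers (median 0.39, 6 at that threshold). Of 12 neutrophil markers 5 had lower and 7 higher means, with a median of 0.0055. The 19 skeletal muscle markers tested all had lower means, with a median of -0.89 and 0 at an unadjusted p under 0.05 in edgeR.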
